A study of Homo sapiens with 6 samples.

Results

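The 41 genes described here are transcription factors and effectors of the integrated stress response (ISR), the amino acid synthesis genes and amino acid transporters known as targets of ATF4, and the cytosolic aminoacyl-tRNA synthetases. The genes were listed by name for these functions, without a threshold on their values but with earlier results of these data known. They are 41 of the 21447 genes to which the deposited transcripts could be summed. The human osteosarcoma line U-2 OS was compared in bulk RNA-seq between 3 libraries of untreated cells and 3 libraries of cells given 4 Gy of ionizing radiation (IR) and collected 24 h later. Both groups are the same line without a genetic change named in the labels, and the labels set them apart by the irradiation alone. The labels number the libraries of each group and the study's notes on its plots call them independent samples, but neither says whether they were separate cultures or separate irradiations. P-values here measure the spread between these libraries, part of which may be technical.

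In the ISR, any of several kinases phosphorylates the translation factor eIF2, which lowers general protein synthesis while translation of the ATF4 mRNA goes up. ATF4 protein, paired with C/EBP family partners, then activates genes that make, import and charge amino acids, among them ASNS and many aminoacyl-tRNA synthetases, the enzymes that load each tRNA with its amino acid. ATF4 is controlled largely at translation, so that its mRNA level is not a measure of its protein, and no protein was measured in these libraries.

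Totals of the estimated counts ran from 18573309 to 22953834 in 5 libraries and reached 45308792 in IR replicate 3, whose values therefore have the smallest counting error. IR replicate 3 also stood apart from its group, with a chi-square per gene of 29.1 and 32.2 against the other IR libraries, while the other 4 pairs of replicates had 3.45 to 9.15. Chi-square grows with depth, and how much of the gap depth accounts for was not tested. Of 9 mesenchymal and osteoblast markers, 4 reached 10 CPM (counts relative to a library size scaled by TMM) in a library: VIM, SPARC and COL1A1 lay at 1465 CPM or above and RUNX2 between 11.3 and 16.1 CPM. The osteoblast transcription factor SP7 was at 0 in every library and BGLAP, which encodes osteocalcin, did not exceed 0.244 CPM. Of 7 markers of other cell types, CD3E and ALB were at 0 and the summed level was 13.1 to 14.7 CPM in untreated and 13.3 to 15.6 CPM in IR libraries, mostly EPCAM. A CPM value is a share of a library, and in bulk samples fewer cells that express a gene and less of its RNA per cell cannot be told apart.

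As a group, the 41 genes moved little after IR. In the fit over all genes, 40 of the 41 passed the filter on low counts, of which 6 were higher and 2 lower at an adjusted P under 0.05 by edgeR's quasi-likelihood test, and 32 did not pass the test. Those counts are 15% and 5% of the 40 genes. Among all 14323 genes tested, 15.5% were called higher and 14.5% lower. Without IR replicate 3, 3 members were higher and 2 lower, with 1796 and 1986 of all genes in place of 2227 and 2080. The gene left untested was STC2, the secreted hormone stanniocalcin 2, which lay between 0.163 and 0.733 CPM.

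The changes were also small. The fitted log2 fold changes (IR over untreated) of the 40 genes ran from -0.27 to 0.42 with a median of 0.0097, beside 0.01 for all genes tested, and 22 lay above and 18 below 0. None of the 40 was past 0.5 in either direction, whereas 5.98% of all tested genes were called higher and 3.74% called lower with a change past that size. For 34 of the 40 genes the whole 95% confidence interval lay within 0.5 on either side of 0, a fold of 1.41, and the median distance from estimate to bound was 0.16. The highest upper bound was 0.67, for CEBPB, and the lowest lower bound was -0.41, for SLC7A1. For 19 of the 40 genes (47.5%) the libraries of one group all lay above those of the other, beside 47.1% of all tested genes. The exact permutation test for 3 against 3 libraries cannot go below P = 0.1 (two-sided), so that this test alone could call no gene. The members took between 0.625% and 0.638% of the counts in the untreated libraries and 0.638%, 0.625% and 0.662% in IR replicates 1, 2 and 3.

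**Figure D1:**
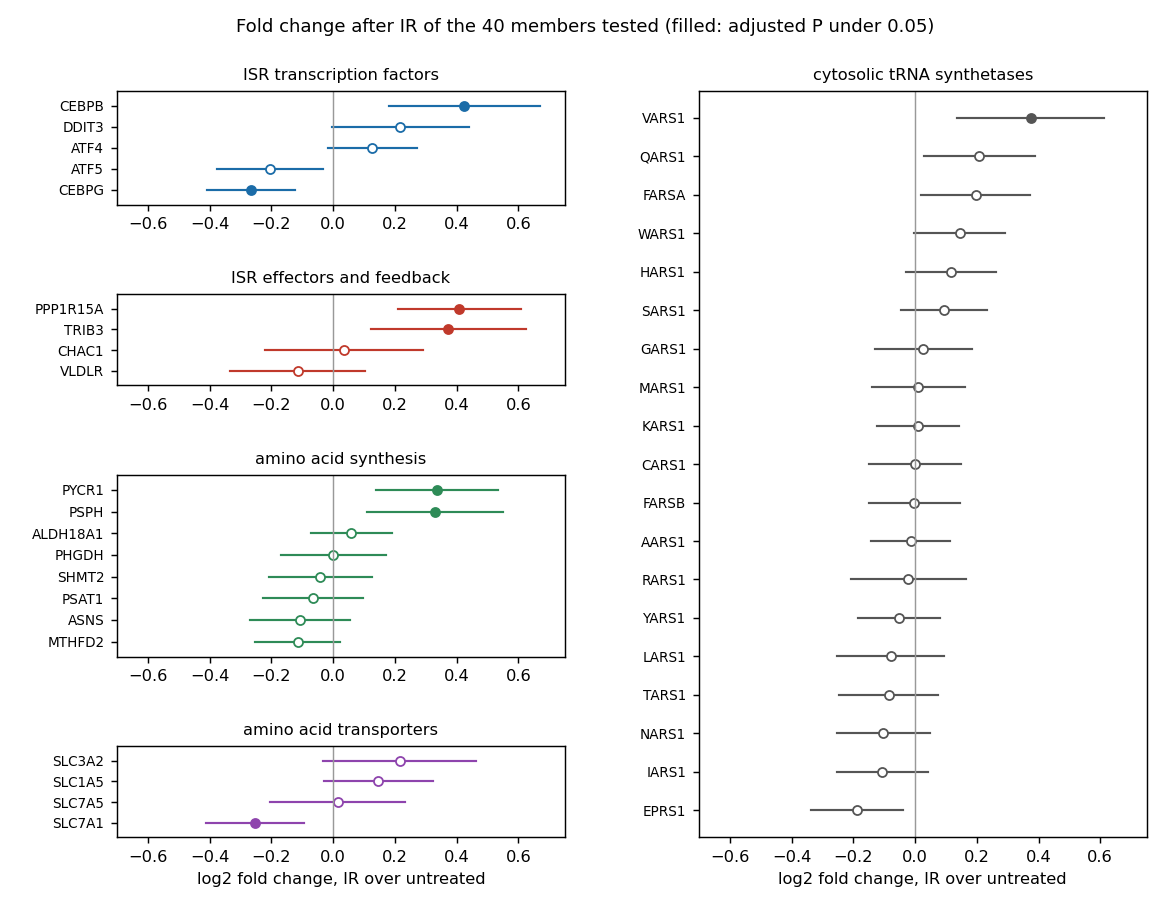
Log2 fold change (IR over untreated, x axis) of the 40 genes tested, 1 row a gene, in panels by role. Points are estimates from edgeR's quasi-likelihood fit with 3 libraries a group, bars are 95% confidence intervals and filled points have an adjusted P under 0.05. The 8 filled points lie between -0.27 and 0.42, and most bars cross 0.

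Fold changes in these libraries followed GC content, and most of the members called higher were rich in GC. Over eighths of all tested genes by GC content of their transcripts, the share of called genes that were higher went from 10% in the lowest eighth to 98.7% in the highest, and the median log2 fold change from -0.19 to 0.34. Of the 6 members called higher, 3 (CEBPB, TRIB3 and PYCR1) were in the highest eighth, which held 5 members in all, and 2 (PPP1R15A and VARS1) in the next one, which held 7. PSPH lay in the fifth eighth, where the median of all genes was 0.016. Of the members called lower, CEBPG lay in the second eighth with a median of -0.14, and SLC7A1 in the sixth, where the median was 0.09 and 72.3% of the called genes were higher. With the GC trend of each library removed, 1 member was higher (PSPH) and 4 were lower (ATF5, SLC7A5, SHMT2 and SLC7A1), beside 11% and 13.4% of all genes. With an offset for effective transcript length, 1 member was higher (PPP1R15A) and 0 were lower, beside 5.82% and 6.11% of all genes, and the smallest adjusted P of the members called lower without the offset was 0.105, for CEBPG. Thus of the 8 genes called without either correction, 6 were not called with the GC trend removed, 7 were not called with the length offset, and no member was called in all 3 fits. The estimates themselves mostly kept their size under that offset. The log2 fold change was 0.53 for CEBPB, 0.48 for TRIB3, 0.45 for PSPH, 0.31 for PYCR1 and -0.25 for CEBPG, beside 0.42, 0.37, 0.33, 0.34 and -0.27 without it. It was smaller for VARS1 at 0.25 and SLC7A1 at -0.19, beside 0.37 and -0.25.

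**Figure D2:**
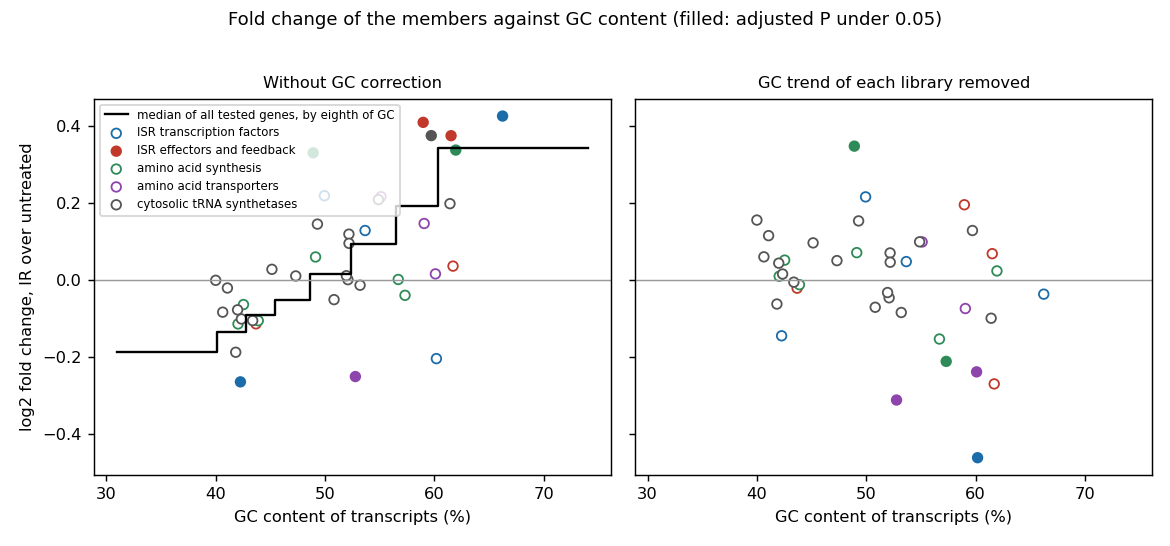
Log2 fold change of the 40 genes tested (y axis) against the GC content of their transcripts in percent (x axis), before (left) and after (right) the GC trend of each library was removed. Colours mark roles, filled points have an adjusted P under 0.05 and the black line is the median of all tested genes in each eighth of GC content. On the left the line climbs from -0.19 to 0.34, and on the right CEBPB is at -0.038 and PSPH is the one filled point above 0.

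Among the 5 transcription factors, 1 was higher and 1 was lower (20% each, beside 15.5% and 14.5% of all genes). ATF4, the central factor of the response (chromosome 22 of GRCh38, 39519695 to 39522683, plus strand), measured 393, 381 and 405 CPM in untreated replicates 1, 2 and 3 and 423, 454 and 411 CPM in IR replicates 1, 2 and 3. Each IR library was above each untreated library, but the log2 fold change was 0.13 (95% confidence interval -0.02 to 0.27) and edgeR's adjusted P was 0.158. DDIT3, which encodes the factor CHOP that is linked to cell death under prolonged stress, measured 12.7, 11.4 and 11.2 CPM in untreated and 13.4, 14.3 and 13.5 CPM in IR libraries. These groups did not overlap either, and the log2 fold change was 0.22 (interval -0.0042 to 0.44, edgeR's adjusted P = 0.125). Exons of DDIT3 (chromosome 12, 57516588 to 57521737, minus strand) overlap those of MARS1 and MBD6 on the opposite strand and of an unnamed gene on its own strand. Whether reads were assigned by strand is not given in the sources used here, so that counts may be split between these genes.

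CEBPB, a C/EBP family factor and ATF4 partner, measured 11.1, 11.3 and 12.2 CPM in untreated and 14.9, 13.9 and 17.3 CPM in IR libraries. The IR libraries were all higher, with a log2 fold change of 0.42 ± 0.11 (SE) and edgeR's adjusted P of 0.0168, the largest estimate among the 40 genes. Its transcripts have the highest GC content of the members, 66.2%, and with the GC trend removed its log2 fold change was -0.038 (adjusted P = 0.796 by edgeR). Over the fits that left out 1 library it ran from 0.31 to 0.49, and the call was lost without untreated replicate 1, untreated replicate 2 or IR replicate 3, with an edgeR adjusted P of at most 0.0618.

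CEBPG, another C/EBP partner, went the other way, with 65.1, 61.3 and 63.6 CPM in untreated and 53.7, 52.9 and 51.5 CPM in IR libraries. The groups were clearly apart and narrow, and the log2 fold change was -0.27 ± 0.06 (edgeR's adjusted P = 0.0123). With the GC trend removed it was -0.15 (edgeR's adjusted P = 0.0845), and without untreated replicate 1 the adjusted P was 0.063. ATF5, a relative of ATF4 that is also controlled at translation, had a log2 fold change of -0.21 (edgeR's adjusted P = 0.0691) and no overlap between groups, and of -0.46 (adjusted P = 0.0043 by edgeR) with the GC trend removed. ATF5 exons overlap IL4I1 and NUP62 on the opposite strand.

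Of the 4 effector and feedback genes tested, 2 were higher (50%) and 0 lower, beside 15.5% and 14.5% of all genes. PPP1R15A encodes GADD34, the inducible subunit of the phosphatase that removes the phosphate from eIF2 and so ends the response. It measured 47.6, 46.9 and 42.3 CPM in untreated and 59.1, 67.9 and 55.1 CPM in IR libraries. All IR libraries were higher, the log2 fold change was 0.41 ± 0.09 (edgeR's adjusted P = 0.00845), and PPP1R15A kept its call in each of the 6 fits that left out 1 library, with a log2 fold change from 0.32 to 0.47. It was 0.19 (edgeR's adjusted P = 0.17) with the GC trend removed and 0.49 (adjusted P = 0.0271 by edgeR) with the length offset.

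TRIB3, a pseudokinase that binds ATF4 and dampens it, measured 21.3, 23.1 and 22.4 CPM in untreated and 27.5, 24.7 and 33.8 CPM in IR libraries. IR replicate 3 was the highest and IR replicate 2 stood close to the untreated libraries. The log2 fold change was 0.37 ± 0.11 (edgeR's adjusted P = 0.031). It was 0.07 (edgeR's adjusted P = 0.595) with the GC trend removed, and the call was lost without IR replicate 3 or any 1 untreated library, with an adjusted P of at most 0.102 by edgeR. CHAC1, which breaks down glutathione, was at 10.4 ± 1.08 CPM in untreated and 10.6 ± 0.44 CPM in IR libraries (SD, n = 3 each), and VLDLR, a lipoprotein receptor, was at 20.8 ± 1.75 and 19.2 ± 1.74 CPM (SD, n = 3 each). Both had overlapping groups, with log2 fold changes of 0.035 and -0.12.

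**Figure D3:**
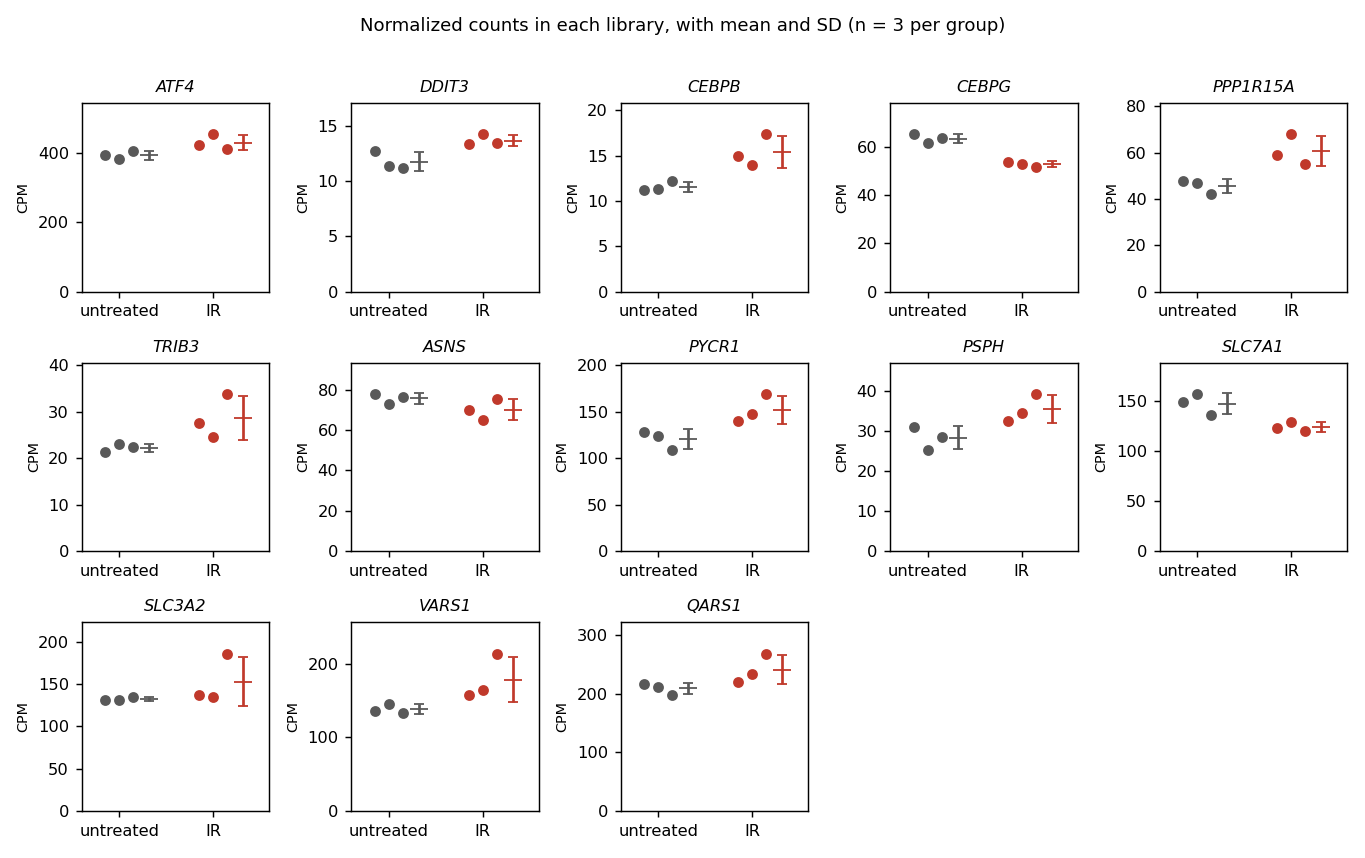
CPM (y axis, from 0) in each library for 13 of the 41 genes, with untreated in grey and IR in red. Dots are libraries in the order of replicates 1 to 3, and the bar beside them is the mean with the SD (n = 3 per group). CEBPG at 51.5 to 53.7 CPM after IR is the most narrowly grouped of the called genes, and IR replicate 3 is the highest dot for CEBPB, TRIB3, PYCR1, PSPH, SLC3A2, VARS1 and QARS1.

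Of the 8 amino acid synthesis genes, 2 were higher (25%) and 0 were lower, beside 15.5% and 14.5% of all genes. In the directions in which edgeR called 0 effector, synthesis or transporter genes, 0 also had an unadjusted P under 0.05 and 0 were called by DESeq2's Wald test. ASNS, which makes asparagine and is a standard readout of ATF4 activity, measured 77.8, 72.8 and 76.1 CPM in untreated and 70.0, 65.0 and 75.1 CPM in IR libraries. The groups overlapped, with a log2 fold change of -0.11 (interval -0.27 to 0.05, edgeR's adjusted P = 0.287). PYCR1, the mitochondrial enzyme of the last step of proline synthesis, measured 128, 124 and 109 CPM in untreated and 140, 148 and 169 CPM in IR libraries. All IR libraries were higher, with a log2 fold change of 0.34 ± 0.09 (edgeR's adjusted P = 0.018). It was 0.02 (edgeR's adjusted P = 0.831) with the GC trend removed, and the call was lost without untreated replicate 3 (adjusted P = 0.069 by edgeR). Exons of PYCR1 overlap MYADML2 on the same strand.

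PSPH, the phosphatase of the last step of serine synthesis, measured 31.0, 25.3 and 28.5 CPM in untreated and 32.4, 34.5 and 39.2 CPM in IR libraries. The highest untreated and the lowest IR library were close but did not overlap. The log2 fold change was 0.33 ± 0.10 (edgeR's adjusted P = 0.0313), and 0.35 (adjusted P = 0.0273 by edgeR) with the GC trend removed. The call was lost in 4 of the 6 fits that left out 1 library (untreated replicate 2, untreated replicate 3, IR replicate 2 or IR replicate 3), with an edgeR adjusted P of at most 0.124. The other enzymes of the serine and one-carbon pathway, PHGDH, PSAT1, SHMT2 and MTHFD2, and the proline enzyme ALDH18A1 had log2 fold changes from -0.12 to 0.06, and none was called. SHMT2 was lower, by -0.21, with the GC trend removed (edgeR's adjusted P = 0.0208).

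Of the 4 amino acid transporters, 0 were higher and 1 was lower (25%), beside 15.5% and 14.5% of all genes. SLC7A1, the carrier of arginine and lysine, measured 150, 157 and 136 CPM in untreated and 123, 129 and 120 CPM in IR libraries. Each IR library was below each untreated library, the log2 fold change was -0.25 ± 0.07 (edgeR's adjusted P = 0.0246) and it was -0.31 (adjusted P = 0.00587 by edgeR) with the GC trend removed. The call was lost with the length offset (-0.19, edgeR's adjusted P = 0.23) and without untreated replicate 1 or 2 (adjusted P at most 0.11 by edgeR).

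SLC3A2 is the heavy chain that pairs with SLC7A5 to import large neutral amino acids. It measured 131, 131 and 135 CPM in untreated and 137, 135 and 186 CPM in IR libraries, so that IR replicate 3 stood apart from the other IR libraries, which lay just above the untreated ones. The log2 fold change was 0.22 (interval -0.03 to 0.46, edgeR's adjusted P = 0.169), and -0.04 (adjusted P = 0.816 by edgeR) with the length offset. In TPM, SLC3A2 was at 127, 122 and 132 in untreated and 109, 110 and 140 in IR libraries, so that IR replicates 1 and 2 lay below the untreated ones. Its partner SLC7A5 had a log2 fold change of 0.015 (adjusted P = 0.925 by edgeR), and -0.24 (adjusted P = 0.0262) with the GC trend removed. Per length, the ratio of SLC3A2 to SLC7A5 in TPM was 1.91, 1.79 and 2.35 in untreated and 1.87, 2.01 and 1.6 in IR libraries, which overlap. SLC1A5, the glutamine carrier, had a log2 fold change of 0.15 and overlapping groups.

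Of the 19 cytosolic aminoacyl-tRNA synthetases, 1 was higher (5.26%) and 0 were lower in the edgeR fit, beside 15.5% and 14.5% of all genes. At an unadjusted P under 0.05, 3 were higher and 1 was lower, and DESeq2's Wald test called 1 lower, EPRS1. The median log2 fold change was -0.00026, and 9 lay above and 10 below 0. For 18 of the 19 the whole 95% interval lay within 0.5 of 0. The groups did not overlap for 6 (31.6%), beside 47.1% of all tested genes. VARS1, which charges valine, measured 136, 145 and 133 CPM in untreated and 157, 164 and 213 CPM in IR libraries. All IR libraries were higher, IR replicate 3 most of all, and the log2 fold change was 0.37 ± 0.11 (edgeR's adjusted P = 0.0258). It was 0.13 (edgeR's adjusted P = 0.238) with the GC trend removed and 0.25 (adjusted P = 0.2 by edgeR) with the length offset, and the call was lost without any 1 untreated library (adjusted P at most 0.0894).

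QARS1, which charges glutamine, measured 217, 212 and 198 CPM in untreated and 221, 235 and 269 CPM in IR libraries. The groups were adjacent without overlap, and the log2 fold change was 0.21 (edgeR's adjusted P = 0.0772). The lowest estimate among the synthetases was that of EPRS1, the fused enzyme for glutamate and proline, at -0.19 (edgeR's adjusted P = 0.0555), with 320 ± 17.9 CPM in untreated and 281 ± 11.2 CPM in IR libraries (SD, n = 3 each). The other 16 enzymes had estimates between those of EPRS1 and QARS1. Exons of HARS1 overlap DND1 on the same strand and HARS2 and WDR55 on the opposite strand, and those of AARS1, KARS1, MARS1, WARS1 and YARS1 overlap other genes on the opposite strand.

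The synthetases differed far more from each other in level than any of them did between groups. Per length, in deposited TPM summed over transcripts, TARS1 (threonine) at 458 ± 71.8 and GARS1 (glycine) at 417 ± 43.6 (SD, n = 3 untreated libraries) were the highest, and FARSA and FARSB, the subunits of the phenylalanine enzyme, were the lowest at 25.5 ± 3.58 and 20.3 ± 1.24. The mean TPM of TARS1 was 22.5 times that of FARSB. The median of the 19 was 119 TPM. Of the 18 neighbouring pairs in the order of untreated TPM, 8 had ranges that overlapped over the untreated libraries, among them TARS1 with GARS1, and each step from NARS1 through KARS1, MARS1 and QARS1 to SARS1. FARSA over FARSB in TPM was 1.36, 1.23 and 1.17 in untreated and 1.31, 1.34 and 1.57 in IR libraries.

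**Figure D4:**
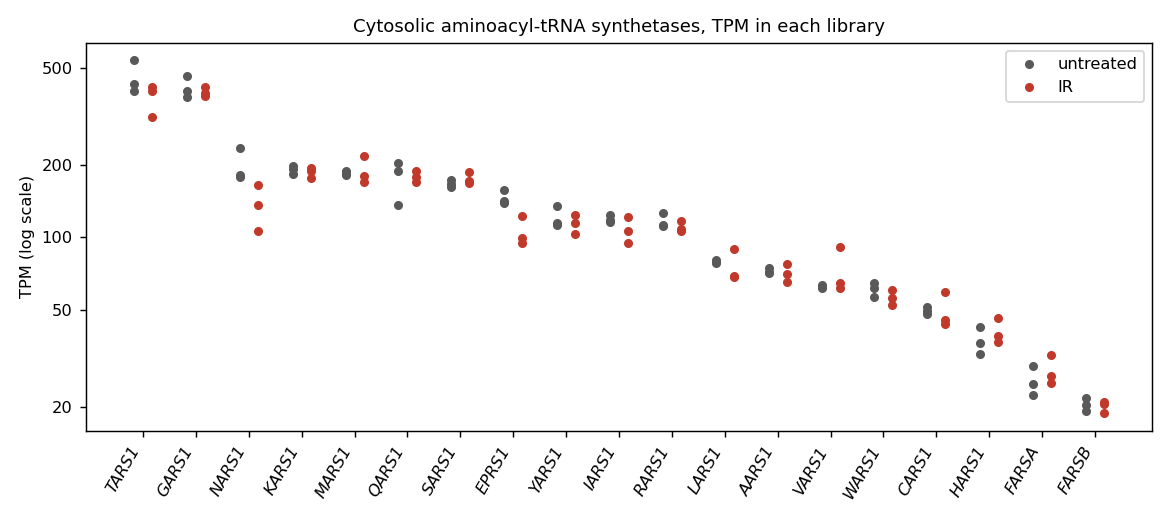
TPM (y axis, log scale) of the 19 cytosolic aminoacyl-tRNA synthetases in each library, in the order of the untreated means, with untreated in grey and IR in red. The levels run from 458 TPM for TARS1 to 20.3 TPM for FARSB, and the groups lie over each other for most genes, with EPRS1 and NARS1 lower after IR on this scale.

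Among the synthetases, the mean TPM was lower after IR by the largest share for NARS1 and EPRS1. EPRS1 was at 146 ± 9.58 TPM in untreated and 105 ± 14.8 TPM in IR libraries, and NARS1, for asparagine, at 197 ± 31.4 and 136 ± 29.2 TPM (SD, n = 3 each), while in CPM their log2 fold changes were -0.19 and -0.10. A retained-intron transcript of EPRS1 of 770 bases had 270, 303 and 361 estimated counts in untreated libraries and 234, 89.0 and 1.8 in IR replicates 1, 2 and 3. Its main transcript of 4862 bases had 5253, 6679 and 6550 in untreated and 5718, 5096 and 12047 in IR libraries. IR replicate 3, the deepest library, thus had the fewest counts of the short transcript. A transcript of 463 bases of NARS1 likewise had 247, 233 and 291 estimated counts in untreated and 205, 192 and 90.9 in IR libraries. One of 466 bases of TARS1 had 211, 197 and 304 in untreated and 48.1, 0 and 0 in IR libraries. Short transcripts of other synthetases did not all go this way, since one of 459 bases of KARS1 had 34.7, 4.7 and 25.0 in untreated and 28.2, 25.8 and 86.2 in IR libraries. These counts are kallisto's assignments among the transcripts of a gene, which shifted between libraries of the same group for some members, among them AARS1. The part of such transcripts in the TPM differences was not tested. With the effective length offset the log2 fold change was -0.42 for EPRS1 and -0.49 for NARS1, with edgeR adjusted P of 0.0569 and 0.105.

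ATF4 acts through the C/EBP-ATF response element (CARE), whose core is written here as TGATGNAA. Windows from 250 bases before to 50 bases after the annotated starts (RefSeq, GRCh38.p14) were found for 35 of the 41 genes and searched for these letters on both strands. SHMT2, PYCR1, LARS1, VARS1, YARS1 and PSPH had no window. The letters were present for 13 of the 35 genes (37.1%) and 24.5% of their 53 windows, beside 4.46% of all 27305 genes and 3.62% of all 35116 windows. Known ATF4 targets were chosen for this list, so that the higher share among its genes is not an independent result. The following stretches are shown because they hold the letters written here as the CARE core. Each is 30 bases, 5′ to 3′ on the strand of the gene, with the CARE letters in capitals. Those with capitals starting in TT hold the letters on the other strand.
ASNS: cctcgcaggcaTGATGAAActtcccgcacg
CEBPG: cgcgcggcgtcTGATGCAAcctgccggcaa
SLC7A1: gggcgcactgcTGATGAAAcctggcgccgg
CHAC1: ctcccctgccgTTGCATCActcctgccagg
TARS1: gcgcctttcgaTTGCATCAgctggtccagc
GARS1: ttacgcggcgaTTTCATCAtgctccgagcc
AARS1: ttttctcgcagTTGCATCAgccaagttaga
IARS1: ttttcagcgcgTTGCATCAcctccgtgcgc
MARS1: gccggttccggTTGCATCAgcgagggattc

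These stretches lie at chr7:97872458-97872487 on the minus strand for ASNS, chr19:33374060-33374089 on the plus strand for CEBPG and chr13:29595663-29595692 on the minus strand for SLC7A1. The CARE letters of ASNS begin 68 bases and those of CEBPG 42 bases before the start, and those of SLC7A1 at base 8 of the transcript. The CHAC1 stretch is at chr15:40953251-40953280 (plus), TARS1 at chr5:33440956-33440985 (plus) and GARS1 at chr7:30594834-30594863 (plus). The AARS1 stretch is at chr16:70289675-70289704 (minus), IARS1 at chr9:92293692-92293721 (minus) and MARS1 at chr12:57488053-57488082 (plus). The other carriers were CARS1, NARS1, SLC1A5 and SLC3A2. Of the 13 carriers, 0 were called higher after IR and 2 were lower, CEBPG and SLC7A1, beside 15.5% and 14.5% of all genes tested. Their median log2 fold change was -0.015, with a range from -0.27 to 0.22. The 21 tested genes with a window and without the letters had 3 called higher (CEBPB, TRIB3 and PPP1R15A) and 0 lower, with a median of 0.06 and a range from -0.21 to 0.42. With the GC trend removed, these 3 and CEBPG were not called. PSPH, PYCR1 and VARS1, also called higher, had no window. A difference between carriers and the other genes was not tested. A match is a description of letters and no evidence of binding. Absence of the letters does not show that a gene lacks a CARE, since only this spelling within these windows was searched.

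The genes that start and reset the ISR were read from a list of 13 kinases, eIF2 and eIF2B subunits and the constitutive phosphatase subunit PPP1R15B. Of these, 0 were higher and 2 were lower (15.4%, beside 14.5% of all genes) by edgeR, with 0 and 3 at an unadjusted P under 0.05 and 0 and 3 by DESeq2's Wald test. EIF2AK2, the kinase PKR that senses double-stranded RNA, fell from 140 ± 3.04 to 109 ± 13.4 CPM (SD, n = 3 each), which gave a log2 fold change of -0.37 (edgeR's adjusted P = 0.0122). PPP1R15B fell from 86.0 ± 3.25 to 69.5 ± 1.6 CPM (SD, n = 3 each), which gave a log2 fold change of -0.31 (edgeR's adjusted P = 0.00635), whereas its inducible counterpart PPP1R15A rose. With the GC trend removed EIF2AK2 was at -0.20 (edgeR's adjusted P = 0.0534) and PPP1R15B at -0.21 (adjusted P = 0.0277). The rise of PPP1R15A was not called then, at 0.19 (edgeR's adjusted P = 0.17). Neither EIF2AK2 nor PPP1R15B was called with the length offset, at -0.42 and -0.29 (edgeR's adjusted P = 0.0955 and 0.0704). PPP1R15A was called with that offset, at 0.49 (edgeR's adjusted P = 0.0271). The kinases for endoplasmic reticulum stress (EIF2AK3), amino acid shortage (EIF2AK4) and heme shortage (EIF2AK1) were not called.

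Other genes known as ATF4 targets, outside the 41, had a wider range of fold changes, in both directions. Of 22 listed, 21 were tested, of which 5 were higher and 5 were lower (23.8% each, beside 15.5% and 14.5% of all genes). Log2 fold changes ran from -1.57 to 1.88 with a median of 0.04, beside -4.90 to 3.47 over all genes, and the genes at both ends, FGF21 and GDF15, lay at low levels. The 3 of lowest P were SLC7A11, SESN2 and ATF3. SLC7A11, the cystine importer that feeds glutathione synthesis, measured 100, 100 and 90.7 CPM in untreated and 58.8, 48.2 and 53.8 CPM in IR libraries, a log2 fold change of -0.85 (edgeR's adjusted P = 2.63e-04). SESN2, a leucine sensor that restrains mTORC1, rose from 28 ± 1.6 to 48.5 ± 3.68 CPM, and ATF3, a stress-induced factor of the ATF family, rose from 26.9 ± 1.00 to 45.4 ± 3.28 CPM (SD, n = 3 each). Their log2 fold changes were 0.80 and 0.76 (edgeR's adjusted P = 3.08e-04 and 3.28e-04). SESN2 and ATF3 are also known as targets of p53.

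The rest of those called are named here after their values were seen. GDF15, a secreted stress hormone and another known p53 target, had the largest rise, from 1.61 ± 0.49 to 5.96 ± 0.50 CPM (SD, n = 3 each). NUPR1 and EIF4EBP1 were higher with log2 fold changes of 0.37 and 0.26. The hormone gene FGF21 was lowest at -1.57, from 1.73 ± 0.20 to 0.572 ± 0.07 CPM (SD, n = 3 each), followed by INHBE at -0.96, the tRNA exporter XPOT at -0.35 and the glutamine carrier SLC38A2 at -0.33. With the GC trend removed, GDF15, SESN2 and ATF3 remained higher and SLC7A11, FGF21, INHBE and XPOT remained lower by edgeR at an adjusted P under 0.05. NUPR1, EIF4EBP1 and SLC38A2 were not called then, at 0.11, 0.0011 and -0.14. With the length offset, NUPR1 (0.46), EIF4EBP1 (0.31) and INHBE (-0.61) were not called, and the other 7 were.

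**Figure D5:**
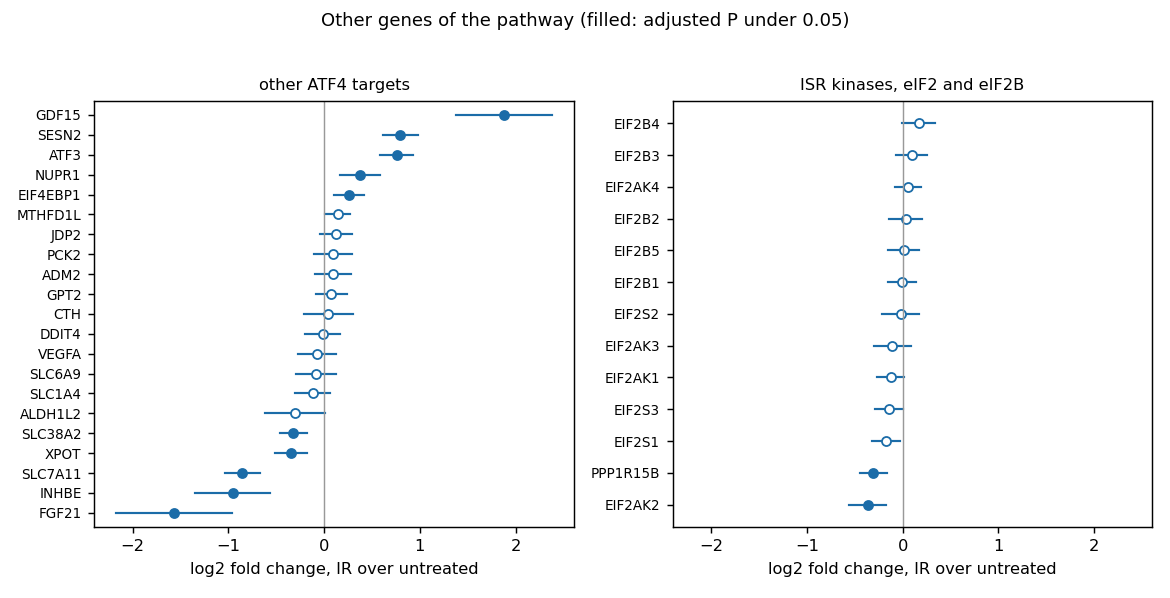
Log2 fold change (IR over untreated, x axis) of 21 other ATF4 targets (left) and of 13 ISR kinases, eIF2 and eIF2B subunits and PPP1R15B (right), 1 row a gene. Points are edgeR estimates from 3 libraries a group, bars are 95% confidence intervals and filled points have an adjusted P under 0.05. The left panel spans -1.57 to 1.88 with filled points at both ends, and the right panel -0.37 to 0.17.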

How the data were processed

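RNA-seq data of 3 untreated and 3 IR libraries (4 Gy, 24 h) were grouped by the sample labels. The authors trimmed reads with fastp, assigned them with kallisto to GENCODE release 37 (GRCh38) and deposited, per transcript, an estimated count without normalization and a TPM value scaled for effective length. The labels speak of poly(A) RNA and an mRNA kit, the paper of a total RNA kit. The name of the IR replicate 3 file has a mark that the others lack, whose meaning is not given in the sources used here.

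Transcripts were matched to GENCODE release 44 (158711 matched, 2460 not), and deposited estimated counts were added up by gene, then rounded. Genes kept by filterByExpr were scaled by TMM and tested by glmQLFTest (edgeR 4.0.16, limma 3.58.1, R 4.3.3), adjusted by Benjamini–Hochberg over all genes, at 0.05. The scripts were checked on simulated counts. Deposited TPM values were summed for levels per length and weighted the lengths and GC content. Single genes were also compared by an exact permutation test. Pairs of replicates differed beyond sampling noise (chi-square per gene of 3.45 or above).

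The members, roles and lists were chosen with earlier results of these data known. Values are given in every library for ATF4, DDIT3, ASNS, members called past 0.5 on the log2 scale (0 genes) and the 2 members of each role with the largest fold change. From other lists, up to 3 called genes of lowest P are named. A gene that this rule selects is not reported here. Alternatives were no filter and a filter of 10 counts, DESeq2 1.42.0 (size factors, Wald test), a likelihood ratio test, a block for the replicate number, a loess correction for GC content (span 0.4), an effective length offset and each library left out.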

Additional observations from a re-analysis of the deposited data

How the results depend on the processing

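Of 252 comparisons of a count of called members or a median with its value under an alternative, 199 moved by less than the set limits and 53 by more. With the GC trend removed, 1 member was higher and 4 lower; the transcription factors had 0 higher (median log2 -0.038), effectors 0 (0.022), synthesis genes 1 higher and 1 lower, transporters 2 lower (-0.16) and synthetases 0 higher (0.045). The estimate of CEBPB changed sign to -0.038, which was not called (adjusted P = 0.796 by edgeR). That of SLC7A5 went from 0.015, not called, to -0.24 (adjusted P = 0.0262 by edgeR). With the length offset, 1 member was higher (an effector, median 0.24) and 0 lower. DESeq2's Wald test and edgeR's likelihood ratio test called 1 synthetase lower, and without a filter the effector median was 0.038, since STC2 then entered.

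Over the 6 fits that left out 1 library, 2 to 7 members were higher and 0 to 3 lower, while 1295 to 2114 of all genes were higher and 1244 to 2284 lower. By role these were 0 to 1 higher and 0 to 1 lower for transcription factors, 1 to 2 higher for effectors (median 0.0079 to 0.22), 0 to 2 higher for synthesis genes, 0 to 1 lower for transporters, and 0 to 2 higher and 0 to 1 lower for synthetases. Where a cause is not stated, the cause was not tested.

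A fit with a replicate block called 6 members higher and 2 lower, as did the fit without it, and 1727 and 1624 of all genes in place of 2227 and 2080. The deviations of same-numbered libraries correlated at -0.03, 0.04 and -0.05, so that the numbers were not taken to pair the libraries.

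Of the 32 members not called, 27 were called under no alternative. The confidence intervals, with 3 libraries a group, set how small a change is detectable at this depth.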

Other observations

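Other genes of the same pathways were read as values without an explanation. Of 17 mitochondrial aminoacyl-tRNA synthetases, 2 were higher (11.8%, beside 15.5% of all genes) and 0 lower after IR by edgeR, with 3 and 0 at an unadjusted P under 0.05 and 2 and 0 by DESeq2's Wald test. CARS2, for cysteine, rose from 26.4 ± 0.93 to 38.3 ± 1.97 CPM (SD, n = 3 each), which gave a log2 fold change of 0.54 (edgeR's adjusted P = 0.00118), and FARS2, for phenylalanine, rose from 9.45 ± 0.31 to 12.6 ± 1.56 CPM (SD, n = 3 each), which gave a log2 fold change of 0.42 (edgeR's adjusted P = 0.024). Both calls held with the GC trend removed, at 0.46 and 0.38. With the length offset FARS2 was called at 0.59 (edgeR's adjusted P = 0.0491) and CARS2 was not, at 0.42 (adjusted P = 0.0727 by edgeR). The cytosolic enzymes for the same amino acids, CARS1 and the FARSA and FARSB subunits, had log2 fold changes of -0.00026, 0.20 and -0.0019 and were not called. A difference between the mitochondrial and cytosolic enzymes was not tested.

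Other enzymes of amino acid and one-carbon metabolism were read in the same way. MTHFD1, the cytosolic counterpart of MTHFD2, fell from 415 ± 7.0 to 341 ± 5.85 CPM (SD, n = 3 each), and its log2 fold change was -0.28, and -0.26 with the GC trend removed (edgeR's adjusted P = 0.00593 and 0.00513). ASL, an enzyme of arginine synthesis, was higher with a log2 fold change of 0.35, and this call did not hold with the GC trend removed. The 7 synthetases and 3 scaffold genes of the multisynthetase complex had 0 calls in either direction in edgeR's quasi-likelihood test. Among all genes 15.5% were higher and 14.5% lower. At an unadjusted P under 0.05, 1 of the complex was higher and 1 lower, and DESeq2's Wald test called 1 lower. Log2 fold changes ran from -0.19 to 0.21 for these synthetases and from -0.0097 to 0.11 for the scaffolds.

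The canonical transcript of SLC3A2 had 0, 0 and 463 estimated counts in untreated and 2.8, 0 and 3180 in IR replicates 1, 2 and 3, so that kallisto assigned the reads of this gene to different transcripts in different libraries. That of AARS1 had 25.9, 1079 and 130 in untreated and 1225, 0.9 and 5920 in IR libraries. That of GARS1 had 0 in each library but IR replicate 3, with 2277. The canonical transcript of KARS1 was steadier, with 3800, 4791 and 4246 in untreated and 4269, 4090 and 9652 in IR libraries.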
